A study of Drosophila melanogaster with 596 samples.

Results

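The crosses described here were chosen by the measured values of 5 heat shock genes. For each of 596 crosses of Drosophila melanogaster the values of Hsp23, Hsp26, Hsp27, Hsp83 and DnaJ-1 in female heads were averaged into a heat shock score, and the 25% of crosses with the highest score (high crosses) were compared with the 25% with the lowest score (low crosses) across all other transcripts. The rule named 7 genes, of which 5 were measured with 1 transcript each, and Hsp22 and Hsp68 are not analysed here. The parents were inbred lines made by recombining founder strains in 2 populations, pA and pB, of the DSPR mapping resource. Females of a pA line were crossed to pB males of the same line number, as pA1xpB2 (63.4% of the crosses) or pA2xpB1 (36.6%), and RNA from about 300 pooled heads of 3 to 5 day old F1 females per cross was hybridised to expression arrays. The females were most likely mated, were raised on standard media without a heat treatment and were given a day of recovery after anaesthesia. High and low are therefore parts of one panel, cut on measured values. All flies of both were outbred F1 progeny that carried founder haplotypes of both populations, each cross gave 1 set of values, and the spread among crosses is the error in every test below.

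Heat shock proteins are molecular chaperones. The small heat shock proteins Hsp23, Hsp26 and Hsp27 bind unfolding proteins and hold them in a soluble state, while Hsp70, with J-domain partners such as DnaJ-1 (the fly Hsp40), refolds them in cycles that use ATP. Hsp83 is the fly Hsp90, which matures kinases, receptors and other clients together with co-chaperones, and the CCT complex folds newly made actin and tubulin. The transcription factor Hsf raises many of these genes after heat or other proteotoxic stress, and most are also expressed without stress.

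The deposited value of a transcript is a residual on a normal scale: the authors removed subpopulation and 10 principal components and then forced the values of each transcript over the 596 crosses to a normal distribution. Values ran between -3.15 and 3.15 with a standard deviation of 0.983 to 1.01 for every transcript, so a difference of 1 is 1 standard deviation among crosses (SD unit), and neither the amount of a transcript nor a fold change can be read from it. Markers of the head were measured (23 of 31 photoreceptor genes, 21 of 24 neuronal genes and 10 of 17 glial genes had a value, against 3 of 24 ovary and egg shell genes), but their levels cannot be compared on this scale. The median over all transcripts of a cross lay between -0.28 and 0.20 in high crosses and between -0.20 and 0.19 in low crosses. High crosses comprised 84 pA1xpB2 and 65 pA2xpB1 crosses (56.4% pA1xpB2), and low crosses 91 pA1xpB2 and 58 pA2xpB1 crosses (61.1% pA1xpB2), and the difference between these shares did not pass Fisher's exact test (two-sided, p = 0.480).

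The score ran from 0.347 to 3.08 in high crosses (median 0.666) and from -2.29 to -0.375 in low crosses (median -0.640). At the edges, the last cross inside the high group had a score of 0.347 and the next one outside it 0.342, and the last cross inside the low group had -0.375 and the next one outside it -0.370, so the groups are ends of a continuous range. Since these genes chose the crosses, their values are a description only. Hsp26 had its lowest value at -0.92, its median at 0.87 and its highest at 3.15 in high crosses, against -3.15, -0.68 and 1.55 in low crosses. Hsp83 had -1.71, 0.80 and 3.15 in high crosses, against -2.81, -0.65 and 1.83 in low crosses. Every gene of the score overlapped between the groups, and few crosses were uniform: all 5 genes were above 0 in 39 high crosses and in no low cross, 4 of 5 were above 0 in 86 high crosses, and none was above 0 in 32 low crosses.

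**Figure D1:**
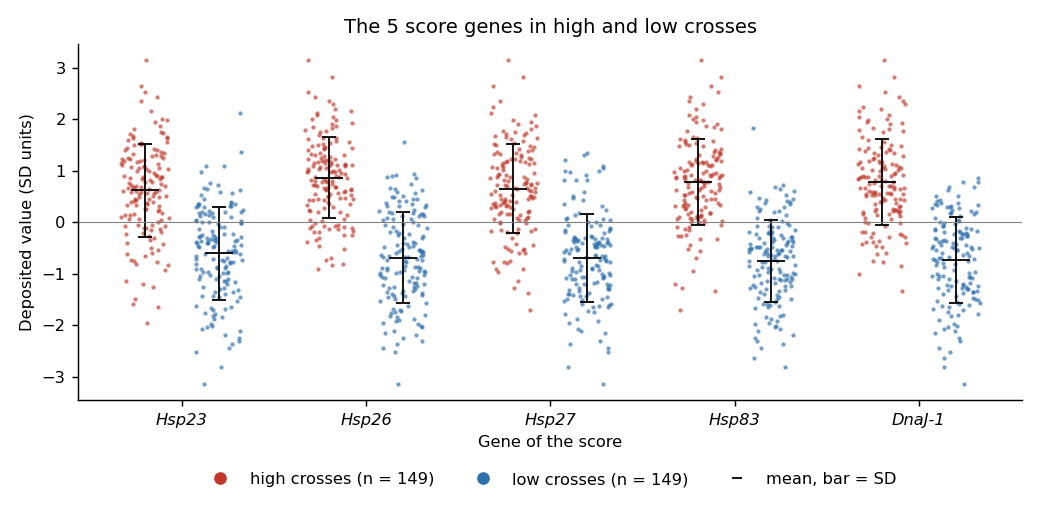
Deposited value in SD units of each of the 5 score genes in the high crosses (left, red) and the low crosses (right, blue), each 25% of 596, 1 point per cross, with the mean and SD in black. The mean of Hsp26 is 0.86 in high crosses and -0.69 in low crosses, and the points of the groups overlap for each gene.

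One cross stood far above the rest. A single pA1xpB2 cross had a score of 3.08, while the next highest cross had 1.78. It had the highest value of all 596 crosses for Hsp23, Hsp26, Hsp83 and DnaJ-1 and the second highest for Hsp27 (2.81). Outside the score it also ranked first for Stip1, Cdc37, CCT8, CCT3, mora and Sgt1, and 6th for Hsp70Aa (2.30), 10th for Hsp67Ba (2.15) and 2nd for Hsc70-4 (2.81), but only 480th for Hsf (-0.86) and 531st for the small heat shock gene CG4461 (-1.23). The comparison of high with low crosses was repeated without the 5 highest and the 5 lowest crosses, an alternative chosen after these values were seen. The correlations and the later fits over all crosses or within each kind of cross were not repeated in this way and kept these crosses.

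The 5 genes were split by kind into 2 sets, the 3 small heat shock genes and Hsp83 with DnaJ-1. The means of these sets hardly varied together. Across the 596 crosses Hsp83 and DnaJ-1 correlated at r = 0.595 (Spearman's rho 0.578), and the small heat shock genes among themselves at r = 0.289 for Hsp26 and Hsp27, 0.268 for Hsp23 and Hsp27 and 0.145 for Hsp23 and Hsp26. Between the sets, Hsp23 and Hsp27 had r between -0.0265 and 0.0079 with Hsp83 and DnaJ-1. Hsp26 had r = 0.181 with each, above its 0.145 with Hsp23, so over all crosses it does not belong to 1 set alone by its correlations. That order was not stable: among pA1xpB2 crosses Hsp26 had r = 0.169 with Hsp23, 0.135 with Hsp83 and 0.179 with DnaJ-1. With Hsp27 it had r = 0.175 among pA1xpB2 and 0.460 among pA2xpB1 crosses. The mean of the 3 small heat shock genes and the mean of Hsp83 and DnaJ-1 correlated at r = 0.0919 (0.0362 among pA1xpB2 and 0.180 among pA2xpB1 crosses). These are descriptions across crosses that share arrays and founder haplotypes. Of the 25% of crosses highest for the small heat shock genes, 28.9% were also among the 25% highest for Hsp83 and DnaJ-1 and 26.2% among the 25% lowest. A high score came from either set: 65.8% of the high crosses were among the 25% highest by the small heat shock genes alone and 58.4% were among the 25% highest by Hsp83 and DnaJ-1 alone.

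**Figure D2:**
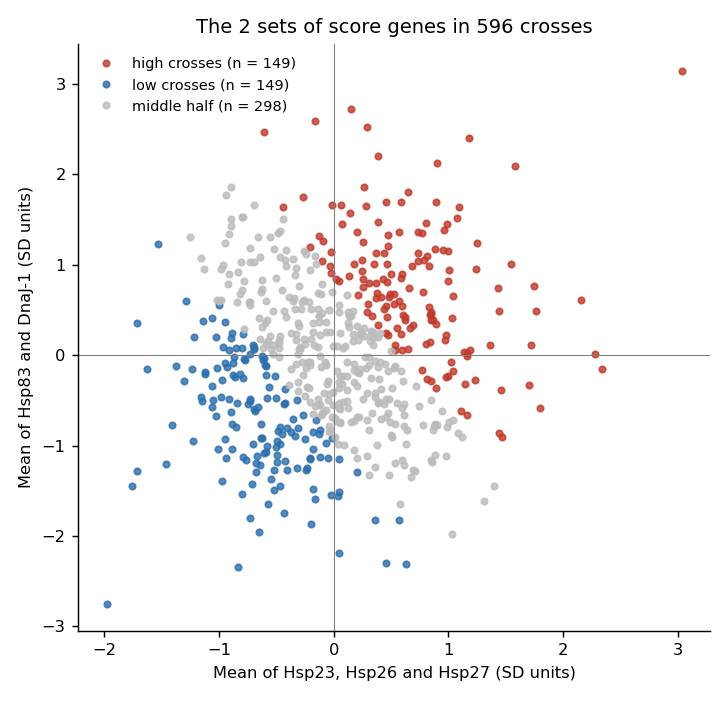
Each point is 1 of 596 crosses, by its mean value of Hsp23, Hsp26 and Hsp27 and its mean value of Hsp83 and DnaJ-1, both in SD units, with high crosses in red, low crosses in blue and the crosses in neither group in grey. The cloud shows little slope (r = 0.0919), and the high crosses lie along its upper right edge, with 1 cross far out in both directions.

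The question put to the remaining transcripts was which of them differed between high and low crosses. With limma and a Benjamini-Hochberg adjusted p under 0.05, 683 of 11059 transcripts were higher (6.18%) and 790 were lower (7.14%) in high crosses. They came from 591 genes with a transcript that was higher (7.97% of 7417 genes) and 599 with one that was lower (8.08%), and no gene had both. For a gene with several transcripts, the value given below is that of the transcript with the largest absolute difference. The differences were modest, with a median size of 0.40 among the called transcripts, and the standard error of each was 0.116. Those that stood out in size were mostly higher ones: 27 genes were higher by at least 0.75 and 5 genes were lower by as much.

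The largest positive differences were those of the co-chaperone Stip1 (1.32), the chaperonin subunit CCT8 (1.16), the zinc finger gene Sry-delta (1.08) and the Hsp90 activator CG1416 (1.01). Stip1 (also known as Hop), which bridges Hsp70 and Hsp90, had -1.54 at its lowest, a median of 0.67 and 3.15 at its highest in high crosses, against -2.81, -0.62 and 1.34 in low crosses. It was above 0 in 79.2% of high and 24.2% of low crosses, and the difference was 1.32 ± 0.12 (SE, limma adjusted p = 4.54e-26), the largest of all transcripts tested. CCT8, a subunit of the CCT chaperonin, had -2.08, 0.61 and 3.15 in high crosses, against -2.81, -0.59 and 2.11 in low crosses, a difference of 1.16 (adjusted p = 9.99e-20). Both genes shifted as a whole while their ranges still overlapped. CG1416, an Aha1-type activator of the Hsp90 ATPase, had -1.63, 0.55 and 2.81 in high crosses, against -3.15, -0.53 and 2.04 in low crosses, and was higher by 1.01.

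Other co-chaperones and a few regulators of transcription completed the 12 genes with the largest positive differences. The CHORD-domain co-chaperone mora (morgana) was higher by 0.96 and Sgt1, a CS-domain partner of Hsp90, by 0.91. Among genes of nuclear proteins, the FLYWCH zinc finger gene gfzf was higher by 0.92 and the transcriptional coactivator mbf1 by 0.87. The rest were CG7879 (0.85), CG17359 (0.82), icln, a component of the complex that methylates Sm proteins (0.82), and Neos (0.80). All 12 had positive differences in pA1xpB2 and in pA2xpB1 crosses when each was taken alone. These are parts of the crosses that picked the genes, so a shared sign is no separate evidence. Of all called transcripts 99.05% had the same sign in both, beside 62.25% of all transcripts.

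The 12 genes with the largest negative differences held no chaperone of the lists used here. The expanded gene ex, an upstream component of the Hippo growth pathway, had -3.15, -0.36 and 2.81 in high crosses, against -2.53, 0.55 and 2.53 in low crosses. It was above 0 in 35.6% of high and 71.8% of low crosses and was lower (difference -0.84, adjusted p = 3.65e-10). The phosphatase gene puc, a target and inhibitor of JNK signalling, had -2.81, -0.37 and 3.15 in high crosses, against -1.90, 0.30 and 2.81 in low crosses, with a difference of -0.75 (adjusted p = 3.11e-08). CG10383 (-0.86), CG30491 (-0.80), the transcription factor Adf1 (-0.77), the lipid phosphatase gene EDTP (-0.73), the homeobox gene Drgx (-0.72), the serine protease gene Hayan (-0.72), CG10433 (-0.71), Pcif1 (-0.71), the Rab GTPase-activating gene RN-tre (-0.71) and CG12769 (-0.71) followed. These 12 had negative differences in both kinds of cross when each was taken alone, which is again no separate evidence, since the same crosses picked the genes.

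The removal of 10 further principal components from the values lowered these differences and ended many calls. Stip1 then differed by 0.57, CCT8 by 0.56, ex by -0.46 and puc by -0.39, each still past the threshold, whereas gfzf (0.26), Sgt1 (0.26), CG7879 (0.22), CG17359 (0.27), icln (0.23) and Neos (0.27) no longer passed it. The calls came to 100 higher (0.904%) and 74 lower transcripts (0.669%).

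Most chaperonin genes were higher. Of 15 genes tested, 11 were higher (73.3%, beside 7.97% of all genes) and none was lower, with a median difference of 0.49 beside -0.0088 over all 7417 genes. All 8 CCT subunits were higher, by 0.49 (CCT7) to 1.16 (CCT8): CCT3 by 0.79, CCT2 by 0.67, CCT4 by 0.65, CCT5 by 0.64, CCT1 by 0.60 and CCT6 by 0.53. CCT3 had -2.81, 0.33 and 3.15 in high crosses, against -2.53, -0.48 and 2.25 in low crosses. The prefoldin-like gene mgr (0.37), the mitochondrial chaperonin gene Hsp60A (0.32) and CG11267, its co-chaperonin (0.35), were higher as well, while the other 4 prefoldin genes did not pass the test (Pfdn1 0.14, Pfdn6 0.10, Pfdn4 0.09, Pfdn2 -0.18). The 8 CCT subunits were all called among pA1xpB2 crosses alone (0.57 to 1.17), and 5 of 8 among pA2xpB1 crosses alone (0.37 to 1.13). Without the 5 highest and 5 lowest crosses all 8 were called, but 9 of the 15 chaperonin genes were higher, against 11 before. With 10 further components removed 4 of the 8 CCT subunits were called. The calls of mgr, Hsp60A and CG11267 were all lost with runs of 12 line numbers as a block, with 10 further components removed and among pA2xpB1 crosses alone, where their differences were 0.38, 0.07 and 0.01. CCT1, CCT5, CCT6, CCT7, mgr, Hsp60A, CG11267 and the prefoldins lie outside the naming rule and are given to complete the family.

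**Figure D3:**
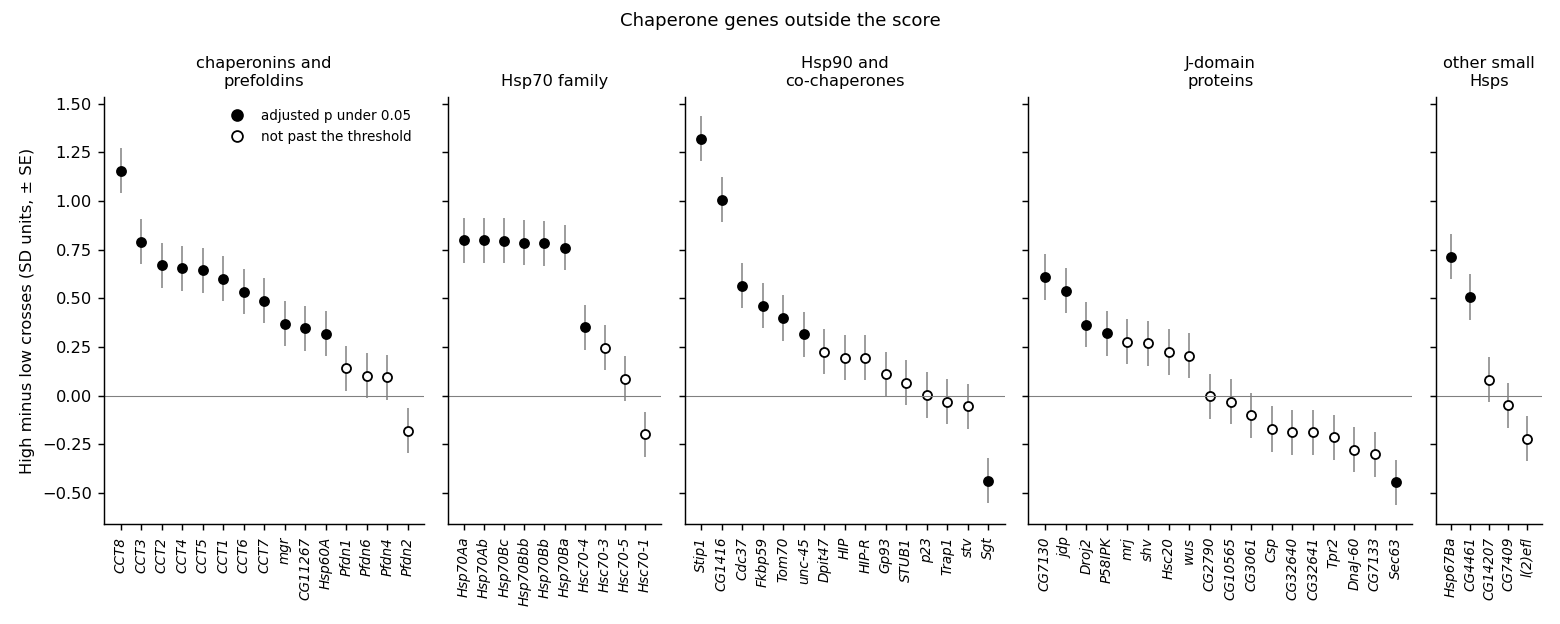
High minus low crosses, in SD units with the SE, for the tested genes of 5 chaperone lists outside the score, with filled points for an adjusted p under 0.05. The 8 CCT subunits and the 6 Hsp70A and Hsp70B genes lie together above 0, Stip1 has the largest difference (1.32), and J-domain genes lie on both sides of 0.

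Of 10 Hsp70 family genes, 7 were higher and none lower, beside 7.97% and 8.08% of all genes. The 7 comprised 6 Hsp70A and Hsp70B genes, whose values alone set the median of 0.77, and Hsc70-4. The inducible genes Hsp70Aa and Hsp70Ab, which carried identical values, had -2.15, 0.58 and 3.15 in high crosses, against -2.64, -0.24 and 2.20 in low crosses, and were above 0 in 67.8% of high and 37.6% of low crosses. Their difference was 0.80 (adjusted p = 3.08e-09). Hsp70Bc (0.79), Hsp70Bbb (0.79), Hsp70Bb (0.78) and Hsp70Ba (0.76) followed closely. The Hsp70 genes are near-identical copies whose probes can match several of them, so these 6 cannot be taken as separate measurements. The constitutive cytosolic gene Hsc70-4 was higher by 0.35 (adjusted p = 0.0248), a call that was lost within each kind of cross (0.36 in pA1xpB2 with adjusted p = 0.139 and 0.37 in pA2xpB1 with adjusted p = 0.275), whereas Hsc70-3 of the endoplasmic reticulum (0.25), Hsc70-5 of the mitochondrion (0.09) and Hsc70-1 (-0.20) did not pass the test.

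Of 15 genes of the list of Hsp90 proteins and co-chaperones, 6 were higher and 1 was lower, beside 7.97% and 8.08% of all genes (median 0.19). Beside Stip1 and CG1416 the higher genes were Cdc37, which loads kinases onto Hsp90 (0.56, adjusted p = 6.65e-05), the peptidyl-prolyl isomerase gene Fkbp59 (0.46), the mitochondrial import receptor gene Tom70 (0.40) and the myosin chaperone gene unc-45 (0.32). Sgt, a small glutamine-rich co-chaperone, had -3.15, -0.17 and 3.15 in high crosses, against -1.87, 0.21 and 2.53 in low crosses, with a difference of -0.44. Co-chaperones did not shift as one group: p23 (0.0028), the mitochondrial Hsp90 gene Trap1 (-0.03), the BAG-domain gene stv (-0.06), the ubiquitin ligase gene STUB1 (0.07) and Gp93 of the endoplasmic reticulum (0.11) lay near 0. HIP and HIP-R carried identical values (0.19, not past the threshold), so they cannot be taken as separate measurements in the count and the median. With 10 further components removed, 2 of the 15 were called higher and none lower.

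J-domain genes, which recruit Hsp70, split. Of 18 tested, 4 were higher (22.2%, beside 7.97% of all genes) and 1 was lower (5.56%, beside 8.08%), with a median of -0.018. With 10 further components removed 1 was called higher and 1 lower, and among pA2xpB1 crosses alone 2 were higher and 1 lower. CG7130 had -3.15, 0.29 and 2.81 in high crosses, against -2.53, -0.29 and 1.67 in low crosses, and was higher by 0.61 (adjusted p = 1.27e-05), followed by jdp (0.54), Droj2 (0.36) and P58IPK of the endoplasmic reticulum (0.32). Sec63, part of the translocation machinery there, was lower (-0.45). The synaptic vesicle J-protein gene Csp had a difference of -0.17 and did not pass the test, nor did CG32640 and CG32641, which carried identical values (-0.19).

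Small heat shock genes outside the score did not move together. Hsp67Ba, whose gene lies in the same cluster as Hsp23, Hsp26 and Hsp27, had -3.15, 0.31 and 3.15 in high crosses, against -2.81, -0.35 and 2.53 in low crosses, and was higher by 0.71 (adjusted p = 1.53e-07). CG4461, a further alpha-crystallin type gene of the cluster, was higher by 0.51 (adjusted p = 0.000486), with 0.13 among pA1xpB2 and 1.04 among pA2xpB1 crosses, although the test of that difference gave an adjusted p of 0.257. The small heat shock genes at other sites had differences of 0.08 (CG14207), -0.05 (CG7409) and -0.22 (l(2)efl), none past the threshold.

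The heat shock factor gene Hsf had -2.53, 0.17 and 2.64 in high crosses, against -2.44, -0.14 and 3.15 in low crosses, and its difference of 0.27 did not pass the test (adjusted p = 0.109). Of 28 stress regulators 3 were higher and 3 were lower (10.7% each, beside 7.97% and 8.08% of all genes, median -0.075), so the share called was near that of all genes. With 10 further components removed 1 was called each way, and among pA2xpB1 crosses alone 0 were higher and 2 lower. Those that were higher were chrb (0.45) and scyl (0.39), REDD1-type inhibitors of TOR signalling, and ref(2)P, the fly p62 autophagy receptor (0.41). Those that were lower were puc (-0.75), the JNK kinase gene hep (-0.48) and Keap1, which holds the antioxidant factor Cnc in check (-0.41). The JNK gene bsk (-0.23) and the JNK target factors Jra (0.12) and kay (0.28) did not pass the test.

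Over all 7417 genes 7.97% were higher and 8.08% were lower, and the counts of the remaining lists stand beside these shares. Of 24 genes of endoplasmic reticulum folding and the unfolded protein response, 2 were higher (8.33%, the kinase gene PEK by 0.46 and P58IPK) and 1 was lower (4.17%, Edem2 with -0.33). Of 32 proteasome genes 1 was higher (3.12%), Prosalpha4 by 0.32 (adjusted p = 0.0455), a call lost without the 5 highest and 5 lowest crosses (0.27, adjusted p = 0.119), and none was lower. Of 35 antioxidant and detoxification genes 3 were higher and 3 lower (8.57% each), with GstE6 at 0.46, Prx2 at 0.43 and GstE12 at -0.48. Of 19 immune genes 1 was higher (5.26%), PGRP-LA by 0.54, and 4 were lower (21.1%), among them the JAK/STAT inhibitor gene Socs36E (-0.52) and the Toll pathway factor Dif (-0.48).

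In the lists of tissues and metabolism most members were not called, and several lists held a larger share of lower genes than the 8.08% of all genes. A gene counted if any of its transcripts was called. The sarcomere, glial, photoreceptor and clock lists, and the immune list above, held more transcripts per gene than all genes, which can raise their shares. The respiratory chain and glycolytic lists held fewer. Sarcomere genes had 1 higher and 5 lower members of 27 (18.5% lower, TpnC73F 0.42, Mlc1 -0.37, Mhc -0.36), glial genes 0 higher and 3 lower of 10 (30% lower, ana -0.46, moody -0.37, Gat -0.37), photoreceptor genes 0 higher and 2 lower of 23 (8.70% lower, laza -0.62, Rh2 -0.37), neuronal genes 1 higher and 1 lower of 21 (4.76% each, futsch 0.39, ChAT -0.35) and fat body genes 1 higher and 1 lower of 16 (6.25% each, Lsd-1 0.43, bmm -0.32). None of the 3 ovary and egg shell genes was called, and their differences were between 0.037 and 0.20. In pooled heads fewer cells of a type and less RNA per cell cannot be told apart, and whether tissue make-up had a part in any difference was not tested. Respiratory chain genes had 0 higher and 8 lower members of 63 (12.7% lower), with a median of -0.12 and differences down to -0.39 (SdhCL), glycolytic genes 0 higher and 2 lower of 11 (18.2% lower, Hex-A -0.34, Tpi -0.34), and cytosolic ribosomal proteins 2 higher and 5 lower of 75 (2.67% and 6.67%). Among clock genes, 1 was higher and 3 lower of 13 (7.69% and 23.1%), the lower ones being per (-0.46), cwo (-0.45) and cyc (-0.34), all transcription regulators of the circadian loop. Of 19 insulin and nutrient genes 3 were higher (15.8%), led by the insulin-like peptide genes Ilp2 (0.59, adjusted p = 2.62e-05) and Ilp5 (0.41), and 1 was lower (5.26%), Mondo (-0.38). The median difference of the insulin and nutrient list was below 0 (-0.15).

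The direction of the differences was then read in the crosses that were in neither group, split at the middle of the score into a second highest and a second lowest class of 25% each. Between these classes, 522 of the 683 transcripts that were higher (76.4%) and 625 of the 790 that were lower (79.1%) had the same sign, beside 60.9% of all 11059 transcripts. The median difference was 0.089 for those 683 and -0.093 for those 790. No transcript passed the test there with limma (0 higher and 0 lower), 776 had an unadjusted p under 0.05 and the smallest adjusted p was 0.0824, while the mean score was 0.159 in the second highest class and -0.196 in the second lowest. Stip1 differed by 0.23 ± 0.12, CCT8 by 0.24, CG1416 by 0.33 and Hsp70Aa by 0.32. All of the 12 genes with the largest positive differences and 10 of the 12 with the largest negative ones kept their sign (EDTP 0.03 and Drgx 0.04 did not), as did 7 of 8 CCT subunits, CCT5 having -0.0097.

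**Figure D4:**
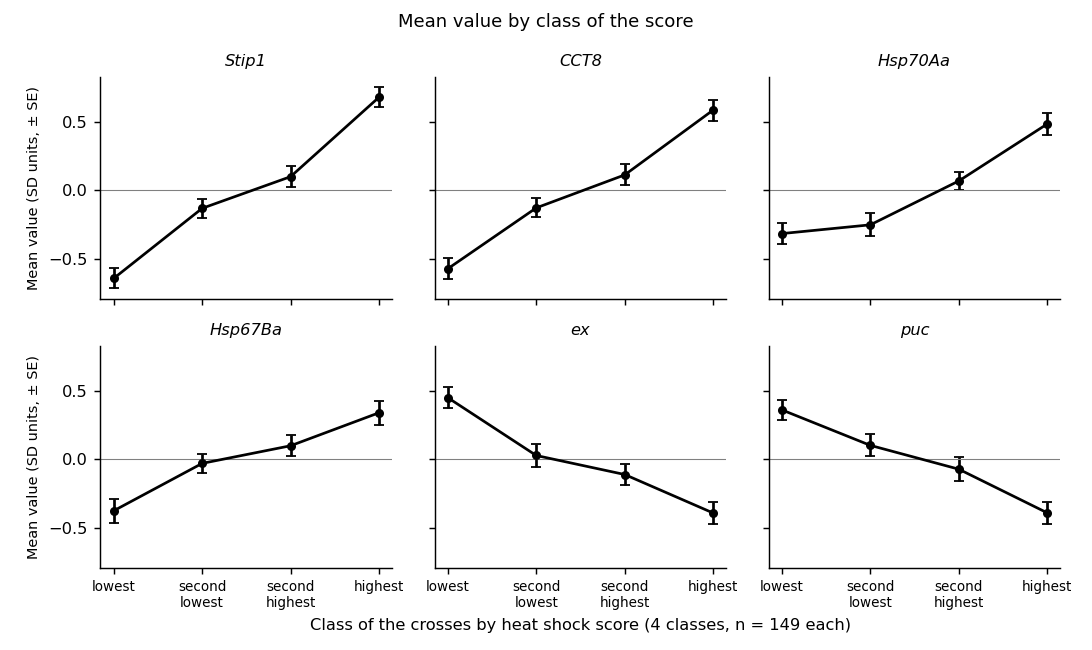
Mean value with SE, in SD units, of 6 genes in 4 classes of equal size of the 596 crosses, ordered from the lowest to the highest heat shock score. Stip1, CCT8, Hsp70Aa and Hsp67Ba step up and ex and puc step down from class to class, with the outer classes farthest apart.

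Since the score pooled 2 sets whose means were nearly uncorrelated, each transcript was also fitted over all 596 crosses with 2 slopes at once, one on the mean of Hsp23, Hsp26 and Hsp27 and one on the mean of Hsp83 and DnaJ-1, a test added after the correlations were seen. A slope is the change in SD units per SD of the set's mean, with a standard error of 0.041. The slope on the small heat shock genes passed an adjusted p of 0.05 for 1278 transcripts (11.6%), the slope on Hsp83 and DnaJ-1 for 2356 (21.3%), and the difference between the slopes for 1850 (16.7%).

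Stip1 and the CCT subunits followed Hsp83 and DnaJ-1 more closely than the small heat shock genes. Stip1 had a slope of 0.59 on Hsp83 and DnaJ-1 and 0.14 on the small heat shock genes, and the difference was significant (adjusted p = 2.26e-10). The 8 CCT subunits had slopes of 0.29 to 0.46 on Hsp83 and DnaJ-1, against -0.048 to 0.15 on the small heat shock genes, and the slopes of each subunit differed (largest adjusted p 0.000137). Over the 15 chaperonins, the slope on Hsp83 and DnaJ-1 was positive and called for 10 genes, and that on the small heat shock genes for 2, beside 11.9% of all 7417 genes with a positive called slope on Hsp83 and DnaJ-1 and 6.0% on the small heat shock genes. Several other chaperone lists also had more positive called slopes on Hsp83 and DnaJ-1 than on the small heat shock genes. The counts were 8 and 1 of 18 J-domain genes and 8 and 4 of 15 Hsp90 proteins and co-chaperones. For the 10 Hsp70 family genes, 6 of them near-identical copies, they were 9 and 6. Of 5 small heat shock genes outside the score, 0 and 2 had such slopes. Some genes of the chaperone lists did not show this pattern. Fkbp59 had a called slope on the small heat shock genes (0.15) and not on Hsp83 and DnaJ-1 (0.06), as did jdp (0.18 and 0.07). No called slope on either was found for p23, STUB1, stv and mgr. The slopes of Fkbp59 and of jdp did not pass the test of a difference (adjusted p = 0.384 and 0.189), so neither gene was shown to follow 1 set more closely. Genes of the endoplasmic reticulum list were called with a positive slope on Hsp83 and DnaJ-1 in 8 of 24 cases (33.3%) and on the small heat shock genes in 1 (4.17%), and 10 of 24 (41.7%, beside 9.44% of all genes) had a lower slope on the small heat shock genes, Hsc70-3 (BiP) among the Hsp70 family doing likewise with 0.26 and -0.08. Outside the chaperones, CG7879 (0.51) and mbf1 (0.46) had the next largest slopes on Hsp83 and DnaJ-1, and EDTP had -0.41, each beside a slope near 0 on the small heat shock genes.

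Other genes followed the small heat shock genes more closely than Hsp83 and DnaJ-1. Hsp67Ba had the largest slope on them, 0.37, against -0.03 on Hsp83 and DnaJ-1 (adjusted p of the difference 5.14e-09). Ilp2 had 0.32 against -0.07 and Ilp5 0.29 against -0.08, icln 0.29 against 0.10, and ex -0.31 against -0.08, and in each case the slopes differed. The Hsp70A and Hsp70B genes followed both sets, with slopes of 0.17 to 0.19 on the small heat shock genes and 0.27 on Hsp83 and DnaJ-1, and their slopes did not pass the test of a difference (Hsp70Aa -0.08 ± 0.06, adjusted p = 0.395). Of 27 sarcomere genes, 9 had a negative called slope on the small heat shock genes (33.3%, beside 6.98% of all genes) and none on Hsp83 and DnaJ-1 (beside 12.4% of all genes), and the slopes of 6 were lower on the small heat shock genes by the test of the difference (22.2%, beside 9.44%). Of 13 clock genes 5 had a negative called slope on the small heat shock genes (38.5%), among them cwo (-0.22) and per (-0.15), and 1 on Hsp83 and DnaJ-1 (7.69%). The test of a difference between the slopes passed for cwo (adjusted p = 0.0151) and not for per (adjusted p = 0.395). Any called transcript made a gene count here too, and the sarcomere and clock lists held more transcripts per gene than all genes.

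**Figure D5:**
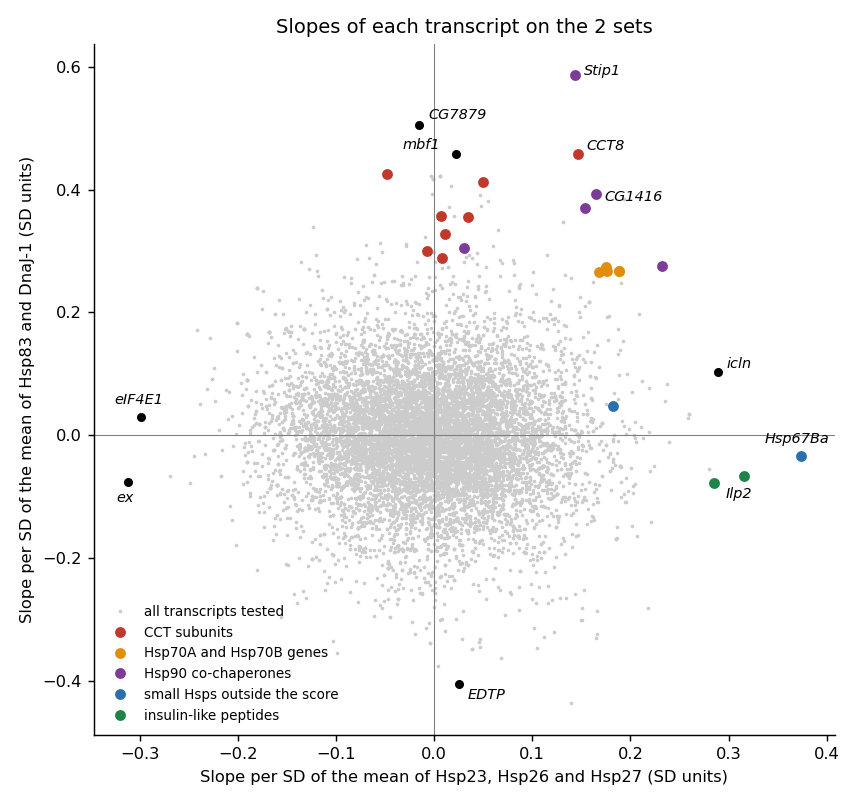
Slope of each of 11059 transcripts per SD of the mean of Hsp23, Hsp26 and Hsp27 (horizontal) and per SD of the mean of Hsp83 and DnaJ-1 (vertical), both in SD units, with named groups in colour. The CCT subunits lie near 0 horizontally and between 0.29 and 0.46 vertically, Hsp67Ba and the insulin-like peptide genes lie far right near the horizontal axis, and the Hsp70A and Hsp70B genes lie between.

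Hsp23, Hsp26 and Hsp27 lie close together in the 67B cluster of chromosome arm 3L, whereas Hsp83 and DnaJ-1 lie elsewhere on it, so the genes beside them were read from the order of the reference annotation (Release 6 names, no coordinates being given in the files). These neighbours were chosen after the values were seen, apart from the small heat shock genes. Of 8 tested genes within 10 places of Hsp23, 6 were called, 2 higher and 4 lower, beside 7.97% of all genes higher and 8.08% lower. Hsp67Ba and CG4461 were higher, while 4 genes on one side of the cluster were lower: the cap-binding translation factor gene eIF4E1 (-0.62), the tubulin acetyltransferase gene Atat (-0.58), the cleavage factor gene Cpsf5 (-0.47) and CG4022 (-0.33). On the other side CG4452 (-0.27) and Fdx1 (-0.19) did not pass the test. eIF4E1 had -2.64, -0.38 and 1.98 in high crosses, against -2.81, 0.37 and 3.15 in low crosses, and its slope was -0.30 on the small heat shock genes and 0.03 on Hsp83 and DnaJ-1 (adjusted p of the difference 5.04e-06). Cpsf5 ran the other way, with -0.0097 and -0.24. Of 10 tested neighbours of DnaJ-1 1 was called, Myt1 (0.39), and of 5 of Hsp83 1 was called, CG32281 (-0.42). These last counts are near the share called among all genes. Neighbouring genes share founder haplotypes, and shared inheritance and joint regulation cannot be told apart here.

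The comparison of high with low crosses was also made within pA1xpB2 and within pA2xpB1 crosses. The test of the difference between the 2 kinds of cross called 2 of 11059 transcripts (0.0181%), CG3552 and CG12116. Stip1 was higher by 1.40 ± 0.15 among pA1xpB2 and by 1.20 ± 0.16 among pA2xpB1 crosses (adjusted p of the difference 0.869). Hsp70Aa was higher by 0.84 among pA1xpB2 and by 0.74 among pA2xpB1 crosses, and puc was lower, with a difference of -0.69 among pA1xpB2 and -0.85 among pA2xpB1 crosses. With fewer crosses in each, 3.64% of transcripts were called higher and 4.21% lower among pA1xpB2 crosses alone, and 1.59% higher and 1.37% lower among pA2xpB1 crosses alone.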

How the data were processed

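The processed values of 596 crosses (378 pA1xpB2 and 218 pA2xpB1, 1 pooled head sample each) were used. The authors hybridised RNA to NimbleGen arrays, normalized and background-corrected the probes with oligo, dropped probes affected by founder variants, summarised probes with RMA, quantile-normalized each transcript, removed subpopulation and 10 principal components and normalized again, so the deposited values are scores in SD units with no absolute level. Shared probes leave transcripts, isoforms and gene copies with identical or similar values. Array batches of 12 crosses are not given in the labels used here, and removal of components may take out biological as well as technical covariation. The number of crosses limits the precision.

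The heat shock score was the mean of the 5 measured genes of the rule. High crosses (149) and low crosses (149) were compared with limma 3.58.1 (lmFit and eBayes, R 4.3.3), with Benjamini-Hochberg adjustment over the 11059 transcripts other than the score genes and a threshold of 0.05. Values were read with Python 3.11.15, pandas 2.3.3 and scipy 1.17.1 and the fits were tested on simulated data. Of 7422 genes, 7397 were named from the reference annotation. The text names the 12 largest differences each way, Hsf, and the leading members of fixed lists (up to 4 called per direction in chaperone and stress lists, up to 3 otherwise); others are said to be outside that rule or come from the added slopes and neighbours. Members and lists were chosen with earlier results of these data known. A gene with several transcripts counted as called if any of them was, and is given by the transcript with the largest absolute difference. List medians use the mean over the transcripts of each gene. No test was made of a list as a whole. Alternatives included other scores, the 60 highest against the 60 lowest crosses, each subpopulation, runs of 12 line numbers as a block, 10 further components and a rank sum test.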

Additional observations from a re-analysis of the deposited data

Results flagged for a closer look

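A difference between the 2 kinds of cross was called for 2 transcripts by the limma interaction term. For CG3552 the difference of high minus low was 0.16 among pA1xpB2 crosses and -1.09 among pA2xpB1 crosses, so that pA1xpB2 exceeded pA2xpB1 by 1.25 (SE 0.24, adjusted p = 0.0013). For CG12116 it was -0.90 among pA1xpB2 crosses and 0.16 among pA2xpB1 crosses, a difference of -1.06 (SE 0.24, adjusted p = 0.0388). Each was singled out after its values were seen, and each had a negative difference in all crosses together (CG3552 -0.35, CG12116 -0.47).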

How the results depend on the processing

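The number of crosses and the 5 measured genes limit the comparison, each cross has 1 set of values, and the scale holds no absolute level, so dim transcripts cannot be set apart from bright ones. No paired analysis was possible because each cross has its own line number, the replicate numbers are only running numbers of different crosses, and high and low are ends of 1 panel. The comparison without the 5 highest and 5 lowest crosses and the fit with 2 slopes were chosen after seeing the data. The planned scores on 4 small heat shock genes and on Hsp68, Hsp83 and DnaJ-1 used the 3 and 2 genes that were measured.

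High crosses had 6.18% of transcripts higher and 7.14% lower. These shares became 3.27% and 4.19% with the score from Hsp23, Hsp26 and Hsp27 alone, 3.64% and 4.21% among pA1xpB2 crosses alone, 1.59% and 1.37% among pA2xpB1 crosses alone, 0% and 0% between the second highest and the second lowest class, and 0.904% and 0.669% with 10 further principal components removed. An adjusted p under 0.01 gave 3.23% higher and 3.65% lower, and a difference of at least 0.5 gave 1.53% higher and 1.12% lower. With runs of 12 line numbers as a block 4.17% were lower, with 4.35% higher. In the other alternatives both counts stayed within 1.5 times of the values first given: the score from Hsp83 and DnaJ-1, the scores without 1 gene, the median score, the 60 highest against the 60 lowest crosses, the comparison without the 5 highest and 5 lowest crosses, the slope over all crosses, subpopulation or array median as a covariate, the rank sum test, transcripts of a gene averaged and identical transcripts entered once.

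Of 1910 values of 91 named genes under alternatives, 1459 kept their direction and their side of the threshold, 393 kept the direction and lost the call, 21 gained one and 37 changed sign, and the cause of these changes was not tested. Between the second highest and the second lowest class the reversed differences were 0.030 for EDTP, 0.042 for Drgx, -0.015 for jdp, -0.027 for P58IPK, -0.0030 for Prosalpha4, -0.050 for Prosbeta2, -0.054 for chrb, 0.050 for Keap1, -0.0036 for GstE6, -0.15 for norpA, 0.017 for ACC, 0.085 for ChAT, -0.030 for VGlut, -0.064 for psd, -0.045 for RpL7A, 0.12 for UQCR-C1, 0.032 for ND-B16.6 and -0.033 for Hsf. With the score from Hsp23, Hsp26 and Hsp27 they were 0.0084 for EDTP, -0.16 for P58IPK, -0.054 for Prosalpha4, 0.011 for Keap1, 0.22 for bmm, -0.13 for Cp7Fc and -0.059 for psd. With the score from Hsp83 and DnaJ-1 they were -0.037 for Hsp67Ba, -0.13 for Ilp2 and -0.21 for Ilp5. Among pA2xpB1 crosses alone they were -0.066 for dec and -0.29 for psd, and with 10 further components removed 0.091 for Mondo and -0.032 for Cp7Fc. Cp7Fc, an egg shell gene that was not called, was also reversed without Hsp83 in the score (-0.047), without DnaJ-1 (-0.047), with the median score (-0.027), between the 60 highest and the 60 lowest crosses (-0.30) and with the block (-0.064).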
